A study of Mus musculus with 2 samples.

Results

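Lung cells of WT mice given silica were compared between 3 tagged suspensions, tags A0301, A0302 and A0303 (the first block), and 3 others, tags A0304, A0305 and A0306 (the second block). A tag is an antibody with a DNA barcode that marks all cells of 1 suspension. Members were the cells whose deposited column name starts with one of these tags and which had 200 or more detected genes and 25% or less of their reads from mitochondrial genes. There were 11874 such cells, 6037 in the first block and 5837 in the second, of 17854 tagged cells in the WT table and 33809 in the series. All mice of the library were C57BL/6 of the WT genotype and had received silica, a mineral dust, into the trachea at 400 mg/kg. Both blocks share this treatment, and no lung without silica was analysed here. The library pools lungs of days 3, 7 and 21, and no label ties a tag to a day or to 1 animal, so the blocks are ranges of tag numbers and not times. Lungs were digested with Liberase, cells were collected from the middle layer of a density gradient and stained with hashtag antibodies, and 20000 cells of the pool were loaded on 1 BD Rhapsody cartridge. All tags shared that cartridge, so p-values measure the spread between tagged suspensions, which may be technical.

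Silica particles are taken up by alveolar macrophages, and their damage draws neutrophils and monocytes into the lung, where monocytes turn into new macrophages. Fibroblasts near the lesions take on an activated state, with tenascin C, periostin and Cthrc1, and deposit the fibrillar collagen of the silicotic nodule. Repair also involves division of capillary endothelial cells and of alveolar type 2 cells, which make surfactant and renew the lining of the air spaces.

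The tags held between 1919 and 2150 kept cells each. Kept cells of a tag held between 68643446 and 74122644 reads in the first block and between 77861384 and 93488824 in the second. The median cell had 24556 ± 920.8 reads (SD, n = 3 tags) in the first block and 31780.5 ± 2890 in the second, and 1144 ± 32.5 against 1385 ± 86.4 detected genes. With each cell thinned to 5000 reads, detected genes were 788 ± 18.2 and 899 ± 38.2, so the second block had more detected genes at equal depth too. No tag of one block overlapped the other on these measures, for which the exact two-sided permutation p was 0.1, the smallest that 3 tags against 3 allow. Mitochondrial shares overlapped, at 6.52% ± 0.255 and 6.28% ± 0.258 (exact permutation p = 0.3). The Pearson correlation of tags across genes was 0.9821 to 0.9871 within a block and 0.9781 to 0.9825 between blocks, over genes of 1 library that share depth and composition. How far the depth of the second block bears on the results was not tested beyond the thinned values given beside them.

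Cells were placed in 31 classes by marker genes, each cell in the class of whose gate markers it held a read of the largest share, at least 0.5, with ties left without a class. The 25 classes with 20 or more cells over the 6 tags were tested. On average 24.6% of first-block cells and 21.7% of second-block cells reached no class, and 8.05% and 9.69% were tied. Of 75 further markers of these 25 classes kept out of the gates, 70 were at least 4-fold higher in their own class than in the other cells, with a median of 17.43-fold. The lowest were Hp and Mcemp1 for the classical monocyte class, at 1.391-fold and 1.408-fold. The class names stand for these gates. The lung label was borne out by classes of alveolar type 2, club, ciliated and alveolar capillary cells.

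**Figure D1:**
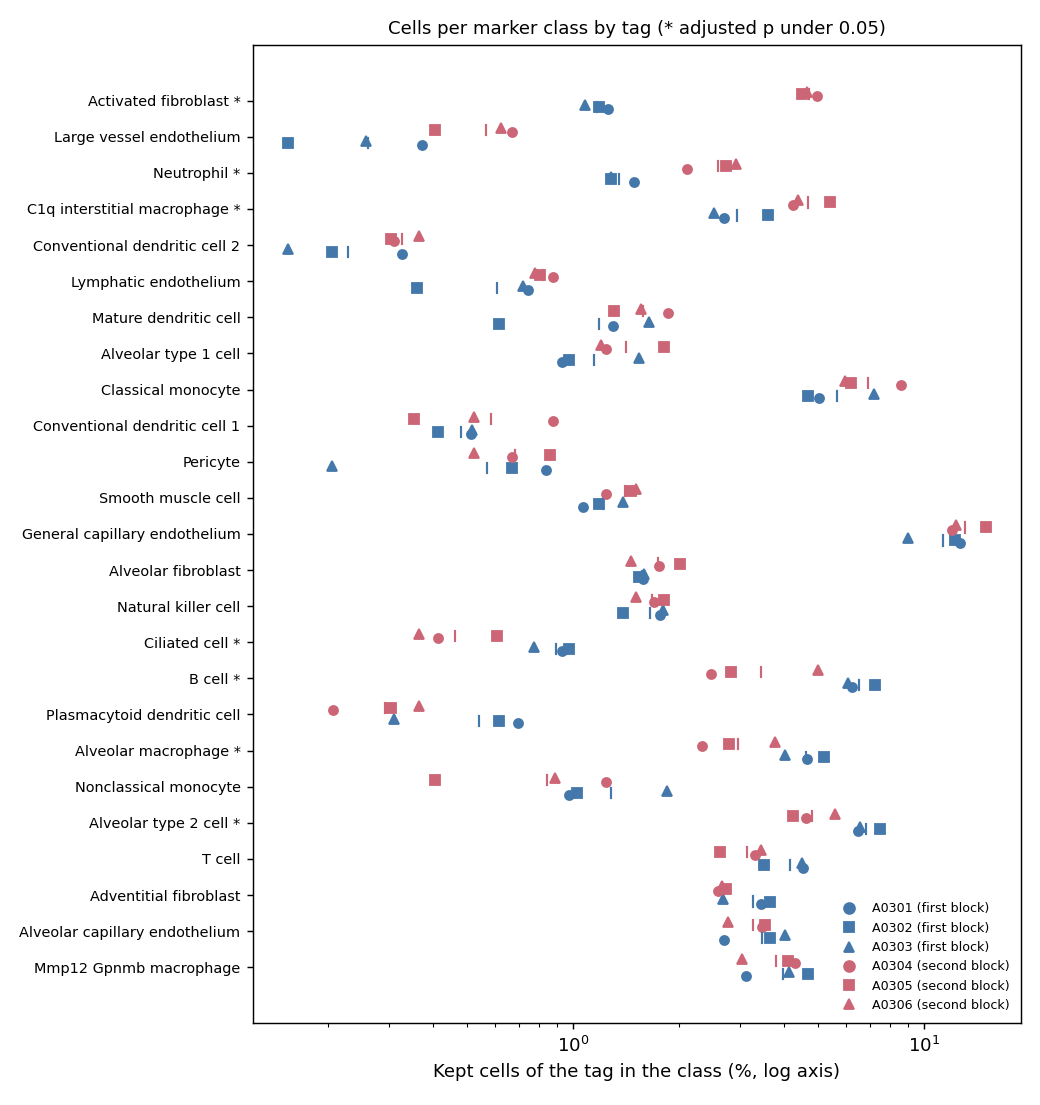
Share of kept cells in each of the 25 classes tested (percent, logarithmic axis), 1 point per tag and a line at the mean, first block blue and second block red, with * for an adjusted p under 0.05. The 3 second-block points of the activated fibroblast class lie between 4.49% and 4.959%, above first-block points between 1.081% and 1.256%.

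Activated fibroblasts, neutrophils and C1q interstitial macrophages took larger shares of the second block, and B cells, alveolar macrophages, alveolar type 2 cells and ciliated cells took smaller ones. The activated fibroblast class, gated on Cthrc1, Tnc, Sfrp1, Postn, Ltbp2 and Grem1, made up 1.256%, 1.183% and 1.081% of cells in A0301, A0302 and A0303 and 4.959%, 4.49% and 4.638% in A0304, A0305 and A0306. Its share was 4.002-fold higher in the second block, with every second-block tag above every first-block tag (log2 change 1.99, SE 0.222, edgeR adjusted p = 4.507e-10). These shares stand for 27, 23 and 21 cells against 96, 89 and 89. With cells thinned to 5000 reads the mean shares were 1.31% and 4.15%.

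Among the immune classes, neutrophils, the first granulocytes to enter injured lung, were 1.488%, 1.285% and 1.287% of first-block cells and 2.118%, 2.725% and 2.918% of second-block cells (log2 change 0.93, SE 0.237, edgeR adjusted p = 0.002557). Their call was lost when a larger share of the gate markers was required (log2 change 0.71). C1q interstitial macrophages, tissue macrophages that make the complement protein C1q, were 2.698%, 3.599% and 2.523% against 4.236%, 5.399% and 4.377% (log2 change 0.67, SE 0.202, edgeR adjusted p = 0.01167). The C1q call was lost with cells thinned to equal depth (edgeR adjusted p = 0.06644). B cells were 6.233%, 7.249% and 6.076% against 2.479%, 2.825% and 5.003% (log2 change -0.92, SE 0.208, edgeR adjusted p = 0.0007333). Tag A0306 thus sat between the other second-block tags and the first block for B cells, and did so for alveolar macrophages. Those macrophages, which patrol the air spaces and clear surfactant, were 4.651%, 5.193% and 4.016% against 2.324%, 2.775% and 3.752% (log2 change -0.65, SE 0.205, edgeR adjusted p = 0.01466). That call was lost with 5 or more reads asked of each marker (log2 change -0.56). Plasma cells, which secrete antibody, were too few to test, at 8, 2 and 3 cells against 2, 1 and 1.

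In the epithelium, alveolar type 2 cells were 6.465%, 7.506% and 6.591% of first-block cells and 4.597%, 4.238% and 5.576% of second-block cells (log2 change -0.51, SE 0.183, edgeR adjusted p = 0.03117). Ciliated cells of the airway were 0.9302%, 0.9769% and 0.7724% against 0.4132%, 0.6054% and 0.3648% (log2 change -0.94, SE 0.345, edgeR adjusted p = 0.03234), a call lost at equal depth (edgeR adjusted p = 0.1347). Of the 25 classes tested, 3 were called higher (12%) and 4 lower (16%). With 1 tag left out between 4 classes (without A0302) and 9 (without A0303) were called. Calls were lost in this way for C1q macrophages without A0301 or A0305, for alveolar macrophages without A0302, A0304 or A0305, for alveolar type 2 cells without A0301, A0302, A0304 or A0305, and for ciliated cells without A0301, A0302, A0304 or A0306. For each of these 7 classes the tags of the blocks did not overlap, and the exact permutation p was 0.1. Large vessel endothelium had a log2 change of 1.08 (edgeR adjusted p = 0.05157) and T cells of -0.42 (edgeR adjusted p = 0.111), neither past the threshold. Alveolar fibroblasts, which support the alveolar wall, had a log2 change of 0.15 (edgeR adjusted p = 0.6144), and adventitial fibroblasts, which lie around vessels and airways, of -0.30 (edgeR adjusted p = 0.2913). Neither of those fibroblast classes passed the test that the activated class passed. The Mmp12 Gpnmb macrophage class, gated on Mmp12, Gpnmb, Arg1, Spp1, Inhba and Trem2, had a log2 change of -0.06 (edgeR adjusted p = 0.8057). Shares add up to a whole within a tag, so a larger share of one class lowers the others.

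Reads were next summed over all kept cells of a tag, which gave 19740 genes for the test. In such sums, fewer cells of a type and less RNA per cell cannot be told apart. In the second block, 46 genes were higher (0.233% of those tested) and 23 were lower (0.117%). With every cell given equal weight the split was 40 higher and 41 lower. Leaving out 1 tag gave 3 calls without A0305, 7 without A0304, 15 to 19 without a first-block tag, and 60 without A0306 (27 higher, 33 lower). Among those higher were Arg1, Nrep, Fn1 and Col1a1, and among those lower Jchain, Pigr, Ear1 and Lcn2. Levels are CPM, reads of a gene scaled to an equal total in every tag with TMM factors, in the order A0301, A0302, A0303 and then A0304, A0305, A0306.

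**Figure D2:**
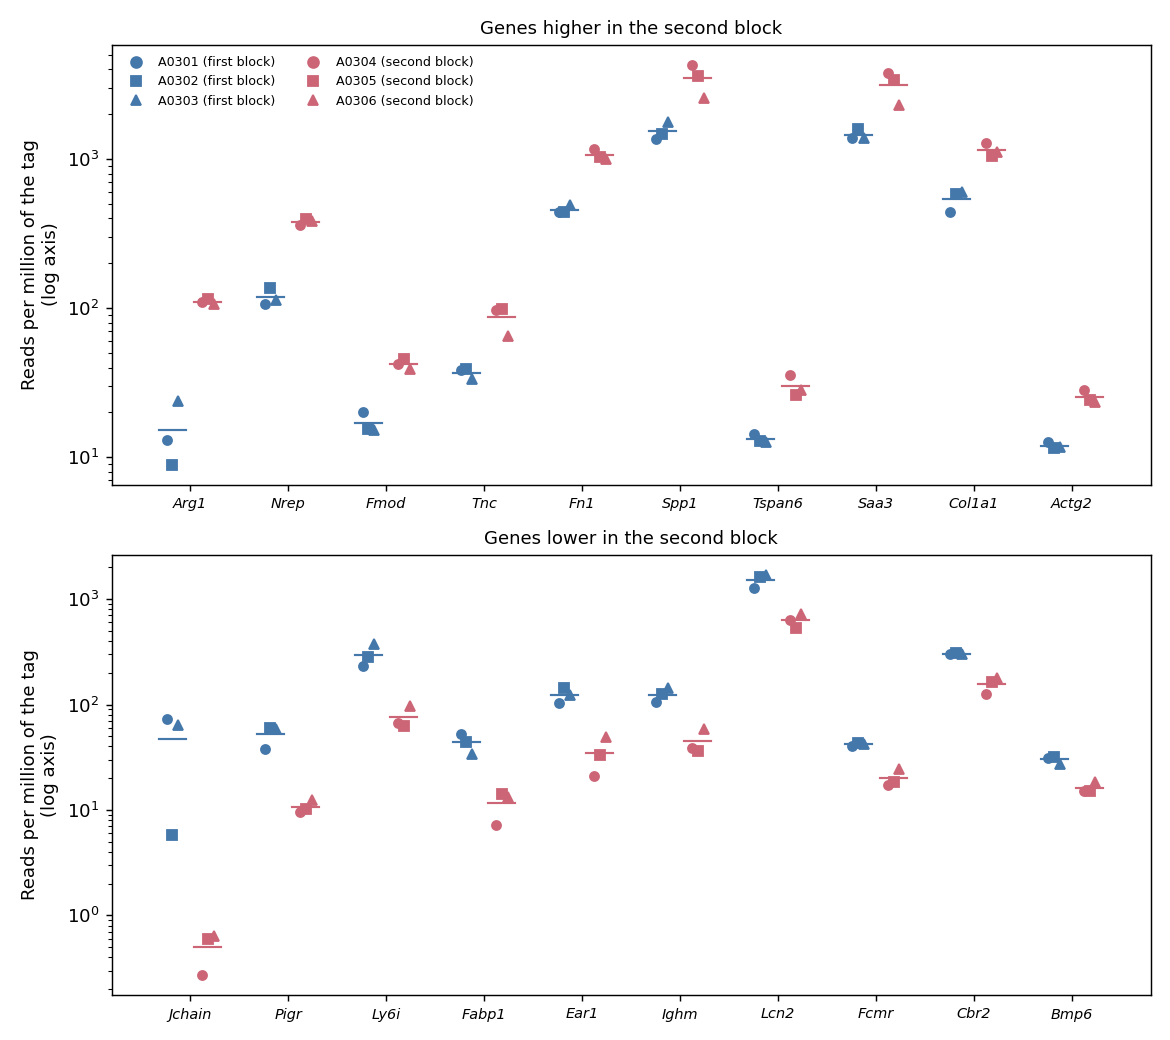
CPM over all kept cells of a tag (logarithmic axis), 1 point per tag and a line at the mean, first block blue and second block red, for the genes of the largest change in each direction. No gene drawn has overlapping blocks, with Arg1 at 8.93 to 23.9 against 107 to 116 and Pigr at 37.6 to 60.0 against 9.51 to 12.4.

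Arg1, the arginase of alternatively activated macrophages, had a CPM of 13.1, 8.93 and 23.9 in the first block and 109, 116 and 107 in the second. It showed the largest rise among the genes named by the rule (log2 change 2.86, SE 0.315, edgeR adjusted p = 0.0169). The gene lies at chr10:24915207-24927470 (GRCm38.p6). Spp1, which encodes osteopontin, a secreted adhesive protein of macrophages in scarring tissue, had a CPM of 1365, 1473 and 1776 against 4305, 3584 and 2565 (log2 change 1.18, SE 0.173, edgeR adjusted p = 0.0394). It lies at chr5:104435111-104441053. Igf1, a growth factor made by macrophages and fibroblasts, stood at 154, 163 and 136 CPM against 301.2, 324 and 310 (log2 change 1.05, SE 0.0815, edgeR adjusted p = 0.00523). For Saa3, an acute-phase apolipoprotein, CPM values were 1390, 1594 and 1389 against 3771, 3397 and 2324 (log2 change 1.12, SE 0.155, edgeR adjusted p = 0.0334). In Spp1 and Saa3 tag A0306 was the lowest of the second block, still above the whole first block. Activated fibroblasts held 10.05% of Saa3 reads in the first block and 30.63% in the second.

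Genes of the interstitial matrix lay higher in these sums of the second block. Of 24 genes on that list, 8 were called higher and 22 had a positive change, with a median log2 change of 0.552 beside -0.00553 over all genes tested. The tags did not overlap and were higher in the second block for 16 of the 24, beside 8.96% of all genes, and lower for 1, beside 8.71%. Fn1, fibronectin, the scaffold on which collagen is assembled, had a CPM of 442, 445 and 489 against 1167, 1038 and 1000.3 (log2 change 1.22, SE 0.0711, edgeR adjusted p = 0.00101). It lies at chr1:71585473-71653280. Col1a1, a chain of type I collagen at chr11:94936224-94953042, had a CPM of 445, 580 and 602 against 1286, 1046 and 1118 (log2 change 1.08, SE 0.119, edgeR adjusted p = 0.0169). Its partner chain Col1a2 had a log2 change of 0.94 (edgeR adjusted p = 0.00525). Tnc, the tenascin of wounds and a gate marker of the activated class, was at 38.6, 39.0 and 33.3 CPM against 97.1, 98.1 and 65.0 (log2 change 1.23, SE 0.163, edgeR adjusted p = 0.0283). Also called higher on the list were the fibril collagen Col5a2 (0.66), the cross-linking enzyme Lox (0.69), the microfibril gene Fbn1 (0.61) and the collagen-binding Sparc (0.55), given as log2 changes.

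Several list members did not pass. Col3a1, the chain of type III collagen, had a log2 change of 0.53 (edgeR adjusted p = 0.0749), and Thbs2, a matricellular thrombospondin, of 1.62 (edgeR adjusted p = 0.0849). Postn was at 0.46 (edgeR adjusted p = 0.223) and Cthrc1 at 1.01 (edgeR adjusted p = 0.514), and the tags overlapped for Cthrc1. Col14a1, a fibril-associated collagen, was the member whose second-block tags all lay below the first block, at a log2 change of -0.38 (edgeR adjusted p = 0.1876). Outside the list, Nrep, a small protein linked to wound fibroblasts, was at 107, 137 and 114 CPM against 360, 397 and 384 (log2 change 1.67, SE 0.101, edgeR adjusted p = 0.00101). Fmod, a proteoglycan that binds collagen fibrils, rose by a log2 change of 1.31, and Mmp14, a membrane-bound collagenase, by 0.73 (edgeR adjusted p = 0.0169 for both). Tspan6, a tetraspanin of the cell membrane, rose by 1.18 (edgeR adjusted p = 0.0283).

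**Figure D3:**
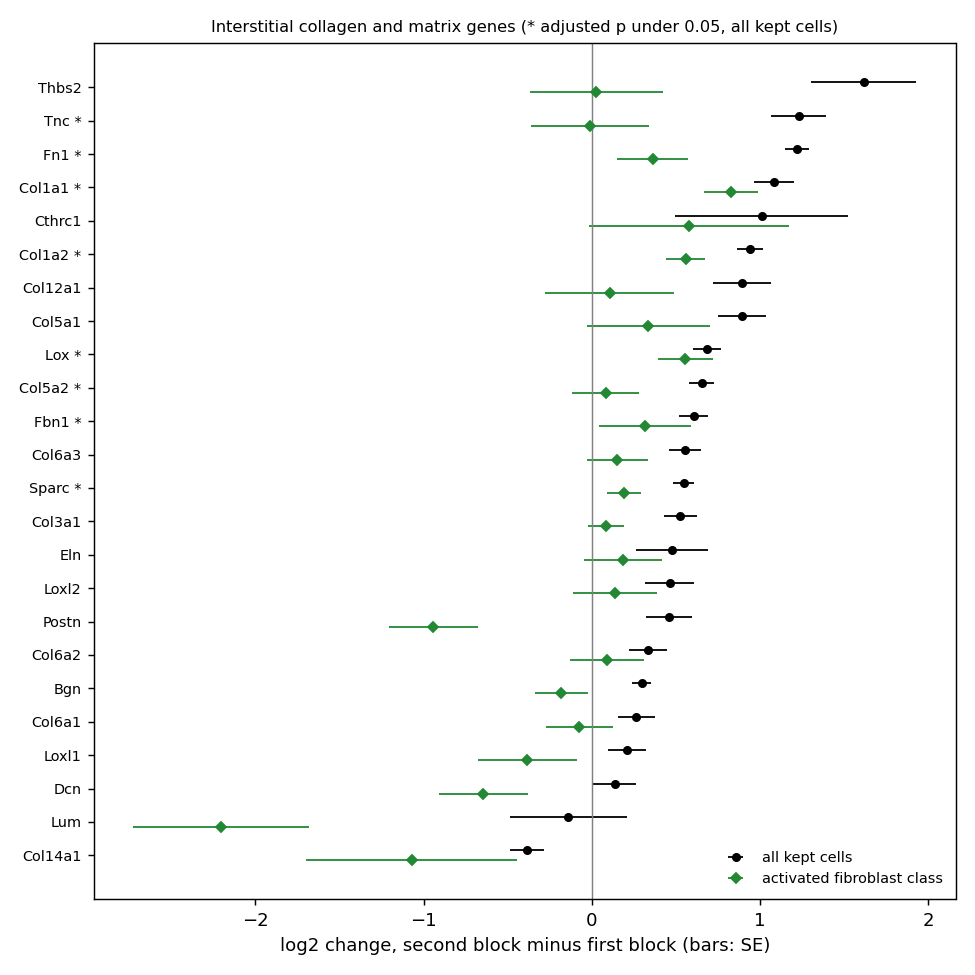
Log2 change, second block minus first, of the 24 interstitial matrix genes over all kept cells (circles) and within the activated fibroblast class (diamonds), with bars of 1 SE and * for an adjusted p under 0.05 over all kept cells. Of the circles 22 lie to the right of 0, and of the diamonds 16.

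Of 10 contractile genes that mark myofibroblasts and smooth muscle, 3 were called higher, all 10 had a positive change and the median was 0.529. Over all genes tested 0.233% were called higher and the median was -0.00553. Actg2, the smooth muscle gamma actin, was at 12.6, 11.5 and 11.7 CPM against 28.2, 24.4 and 23.3 (log2 change 1.08, SE 0.138, edgeR adjusted p = 0.0251). Tpm1, a tropomyosin, rose by 0.55 and Cald1, a regulator of actin and myosin, by 0.45. Smooth muscle cells held 78.37% of the Actg2 reads of the first block and 57.69% of those of the second, and activated fibroblasts 4.747% and 14.65%. Actg2 is a gate marker of the smooth muscle class, so its reads help to place cells there. Among 18 basement membrane genes, the collagen IV chains Col4a1 (0.48) and Col4a2 (0.56) were called higher, and the median change was 0.157, against the same background.

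The share of the activated fibroblast class moved with these sums. Cells of that class held 12.63% of Col1a1 reads in the first block and 44.41% in the second, while adventitial fibroblasts held 35.78% and 17.49%. For Fn1 the activated class went from 10.5% to 24.41% of reads, and for Nrep from 14.94% to 40.81%. In a fit chosen after these values were seen, with the activated class left out, 3 genes were called higher and 2 lower. They were Arg1 (log2 change 2.94, edgeR adjusted p = 0.04284), Fn1 (1.06, 0.01677), Nrep (1.23, 0.02247), Pigr (-2.21, 0.02247) and Iglc1 (-1.61, 0.02386). Without that class, Col1a1 had a log2 change of 0.51 (edgeR adjusted p = 0.1959) and Col1a2 of 0.47 (edgeR adjusted p = 0.104), so neither collagen chain passed. Calls were also lost where the change hardly moved. Lcn2 was at -1.22 (edgeR adjusted p = 0.05179) beside -1.28 over all cells, and Ear1 at -1.76 (edgeR adjusted p = 0.1048) beside -1.84. The number of calls lost therefore does not measure the part of the activated class.

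Within the activated fibroblast class itself, a fit added after its share was seen tested 10460 genes and called 0 (0%). At an unadjusted p under 0.05 there were 726 genes, and DESeq2 called 82. Matrix genes there had a median log2 change of 0.098 beside 0.0536 over all genes, with 16 of 24 positive. Col1a1 in the class was at 3648, 3431 and 4864 CPM against 8084, 5896 and 7224, with no overlap (log2 change 0.83, SE 0.161, edgeR adjusted p = 0.2999). Lum, a proteoglycan of resting fibroblasts, was at 64.3, 123.7 and 193.9 CPM against 33.1, 26.0 and 23.7 (log2 change -2.20, edgeR adjusted p = 0.2999). Col3a1 in this class was between 4620 and 5489 CPM in the first block and between 5133 and 5840 in the second, which overlap. The gate markers of the class summed to 3974 to 4060 CPM in its first-block cells and 2826 to 3307 in its second-block cells, and those of adventitial fibroblasts to 2355 to 2961 and 1674 to 2181. The part of these differences in the values of single genes was not tested.

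Antibody genes lay lower in the second block of the whole-suspension sums. All 12 genes of the immunoglobulin and plasma cell list had a negative change, 3 were called lower, and the median log2 change was -1.93. Over all genes tested 0.117% were called lower and the median was -0.00553. Ighm, the heavy chain of IgM, was at 105, 126 and 143 CPM against 38.8, 36.5 and 59.1 (log2 change -1.48, SE 0.195, edgeR adjusted p = 0.0283). Iglc1, a lambda light chain that shares sequence with its neighbours, fell by 1.69 on the log2 scale, and Fcmr, the receptor for IgM on B cells, fell by 1.08. Jchain, which links IgA and IgM into polymers, was at 72.6, 5.80 and 63.5 CPM against 0.273, 0.592 and 0.631 (log2 change -6.57, SE 0.938, edgeR adjusted p = 0.0373). The 13 plasma cells of the first block, a class whose gate includes Jchain, held 92.76% of the Jchain reads there, so the value rests on few cells. Class-switched heavy chains were high in single first-block tags, with Igha at 170 CPM in A0301, and Ighg1 at 154 and Ighg2c at 255 in A0303. With B and plasma cells left out, a setting added after seeing the data, Ighm had a log2 change of -0.90 (edgeR adjusted p = 0.06122) and Jchain of -2.20 (edgeR adjusted p = 0.1805). Iglc1 was then at -1.63 (edgeR adjusted p = 0.06122) and Fcmr at -1.05 (edgeR adjusted p = 0.292), close to their values over all cells but no longer called. Fcmr is a gate marker of the B cell class. In the first block that class held 65.48% of Iglc1 reads and 70.91% of Fcmr reads, and cells of no class 21.51% and 13.85%. Whether cells of no class include B cells was not tested, so this setting cannot tell fewer B cells from a lower level.

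Several genes that fell belong to the lining of the air spaces. Pigr, the receptor that carries polymeric antibody across epithelium and lies at chr1:130826684-130852249, was at 37.6, 60.0 and 59.1 CPM against 9.51, 10.3 and 12.4 (log2 change -2.28, SE 0.204, edgeR adjusted p = 0.00951). Lcn2, lipocalin-2, which withholds iron from bacteria, was at 1265, 1628 and 1697 CPM against 632, 534 and 725 (log2 change -1.28, SE 0.133, edgeR adjusted p = 0.0155). Ear1, a ribonuclease and gate marker of alveolar macrophages with near-identical relatives, was at 103, 143 and 124 CPM against 21.0, 33.1 and 49.1 (log2 change -1.84, SE 0.276, edgeR adjusted p = 0.0415). Alveolar type 2 cells held 82.93% of the Lcn2 reads of the first block and 65.2% of those of the second, and alveolar macrophages 77.38% and 59.59% of Ear1 reads. Falls were also called for Ly6i, a membrane protein of the Ly6 family (-1.97), Fabp1, a fatty acid carrier (-1.92), and Cbr2, a carbonyl reductase (-0.96). Alveolar type 2 cells held the most Cbr2 reads, 45.54% and 47.46%, ahead of ciliated cells at 29.61% and 18.74%. Bmp6, a ligand of the BMP pathway (-0.89), and C3, the central complement protein (-0.53), were called lower too. The class I histocompatibility genes H2-K1 (-0.41) and H2-D1 (-0.32), which resemble each other in sequence, also fell.

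Other lists showed few calls in these sums. Of 25 type I interferon response genes 0 were called, with a median of -0.051, and of 19 genes of the TGF-beta pathway 0, with a median of 0.08. None of the 4 CCR2 ligand genes, 14 interleukin-1 genes or 12 TNF genes tested was called. Across the whole suspension edgeR called 69 genes, with 2256 at an unadjusted p under 0.05 and 835 called by DESeq2. Among 11 alternative activation genes only Arg1 was called, and Retnla (log2 change 1.92, edgeR adjusted p = 0.173) and Ccl24 (1.79, 0.117) did not pass.

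**Figure D4:**
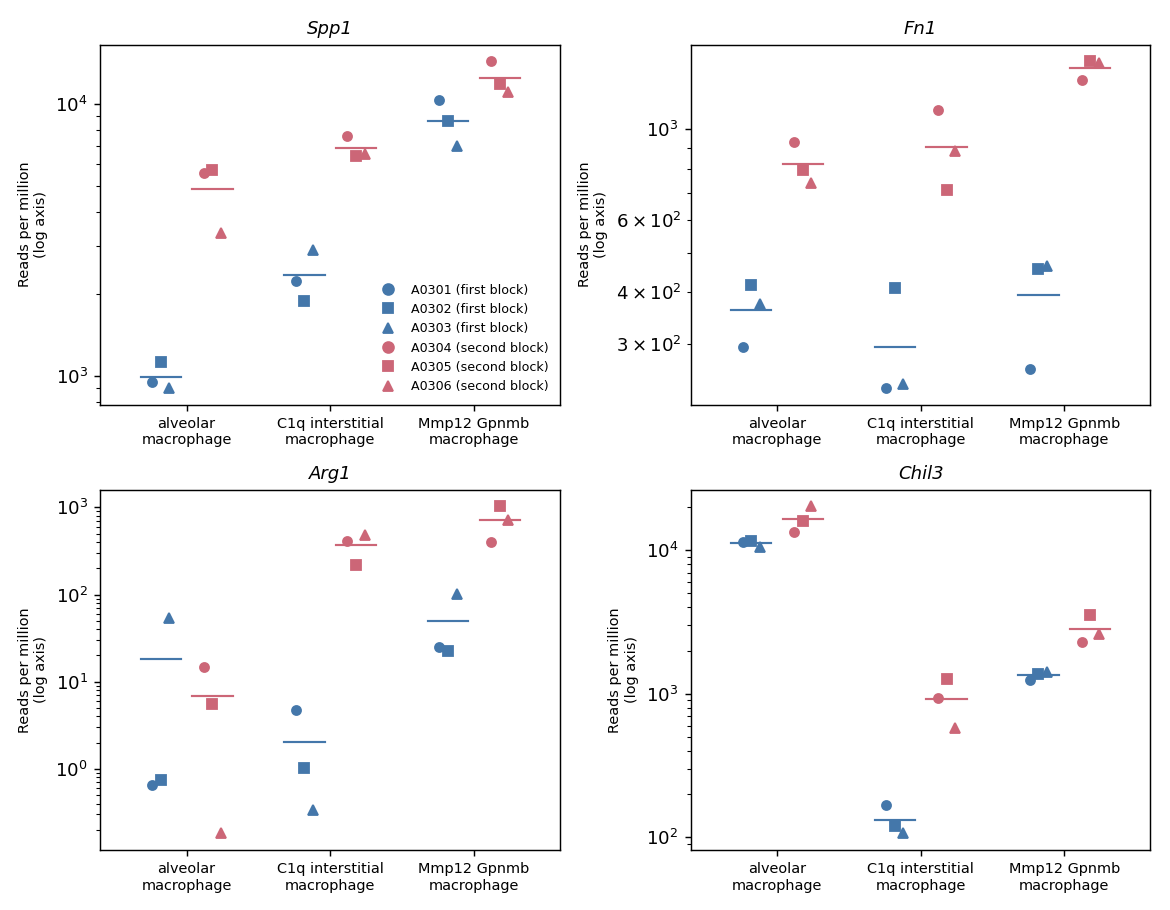
CPM of Spp1, Fn1, Arg1 and Chil3 within alveolar, C1q interstitial and Mmp12 Gpnmb macrophages (logarithmic axis), 1 point per tag, first block blue and second block red. Spp1 in alveolar macrophages sits at 901 to 1124 in the first block and 3352 to 5694 in the second, and Arg1 in C1q macrophages at 0.339 to 4.70 and 217 to 483.

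In alveolar macrophages Spp1 and Fn1 rose, in C1q interstitial macrophages Spp1 and Arg1, and in Mmp12 Gpnmb macrophages Fn1. In alveolar macrophages 10671 genes were tested, of which 4 were called higher (0.0375%) and 0 lower (0%) by edgeR. At an unadjusted p under 0.05 there were 637 in either direction, and DESeq2 called 78. Spp1 was at 953, 1124 and 901 CPM against 5581, 5694 and 3352 (log2 change 2.30, SE 0.184, edgeR adjusted p = 0.00125). Nearly all cells had a Spp1 read, 91.04% and 97.09%, and the median cell had 29 and 167 reads of it. At 5000 reads a cell these shares were 66.31% and 91.86%, beside 14.76% and 13.5% in B cells, which should lack the gene. Median depths were 68142 and 79541.5 reads in alveolar macrophages and 14734 and 14607 in B cells. Fn1 was at 294, 417 and 374 CPM against 932, 796 and 739 (log2 change 1.18, SE 0.159, edgeR adjusted p = 0.0422). The Fn1 call held in 5 of 15 alternative settings, with log2 changes of 0.21 to 1.3, and the Spp1 call in 14. The lysozyme genes Lyz1 and Lyz2, near-identical copies between which reads may be split, rose by 0.59 and 0.57. Fn1 was the 1 called member of the interstitial matrix list, of which 16 of the 19 genes tested in alveolar macrophages had a negative change, with a median of -1.028. With 1 tag left out the calls were 7 without A0306, 4 without A0305 and 1 without any of the others.

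The summed gate markers in alveolar macrophages also differed between the blocks. Those of the Mmp12 Gpnmb class, which include Spp1, summed to 1398 to 1659 CPM in the first block and 3745 to 6022 in the second, and those of alveolar macrophages to 4383 to 4823 and 3243 to 4437. The part of this difference in the result was not tested. Trem2, a lipid receptor of macrophages and a gate marker of the other class, was at 96.4, 68.1 and 86.7 CPM against 173.5, 192.0 and 143.3 (log2 change 1.02, edgeR adjusted p = 0.435). Gpnmb, a lysosomal membrane protein of the same gate, was at 266.7, 325.8 and 250.5 against 205.3, 296.1 and 254.7, which overlap.

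Of 15 genes of cholesterol synthesis and uptake all had a positive change in alveolar macrophages, and 0 were called. Their median log2 change was 1.24 beside 0.0136 over all genes, and 11 had second-block tags all above the first, beside 6.26% of all genes. Idi1, an enzyme of isoprenoid synthesis, was at 3.31, 9.58 and 9.32 CPM against 55.0, 52.7 and 48.1 (log2 change 2.81, edgeR adjusted p = 0.25). Sqle, squalene epoxidase, was at 5.16, 8.70 and 14.7 against 47.8, 37.6 and 37.6. The blocks stood apart for both genes, neither of which passed the test. Of 21 type I interferon response genes 20 had a negative change, with a median of -0.979 and 8 with second-block tags all below the first, beside 6.39% of all genes. Irf7, the interferon regulatory factor, was at 70.2, 84.8 and 93.5 CPM against 20.8, 32.3 and 11.8 (log2 change -1.94, edgeR adjusted p = 0.346).

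In C1q interstitial macrophages 10995 genes were tested, and 5 were called higher (0.0455%) and 0 lower (0%), with 649 at an unadjusted p under 0.05 and 94 called by DESeq2. Arg1 was at 4.70, 1.03 and 0.339 CPM against 407, 217 and 483 (log2 change 7.44, SE 0.671, edgeR adjusted p = 0.00831). The first-block value rests on 23 reads, so its size is uncertain. An Arg1 read was found in 5 of 177 cells of the first block (2.825%) and 73 of 273 of the second (26.74%), and at 5000 reads a cell in 0.565% and 20.88%. Among B cells the unthinned shares were 1.018% and 2%, so the first-block share lay near that background and the second-block share above it. F7, coagulation factor VII, which tissue macrophages also make, was at 6.53, 10.3 and 30.2 CPM against 356, 226 and 305.05 (log2 change 4.26, SE 0.529, edgeR adjusted p = 0.0311). Its share of cells with a read was 9.605% against 40.29%. Median depths of the class were 51488 and 67025 reads.

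Spp1 in C1q macrophages was at 2241, 1880 and 2899 CPM against 7640, 6447 and 6555 (log2 change 1.56, SE 0.15, edgeR adjusted p = 0.00831). Lyz2 rose by 0.65. With 1 tag left out the class had 0 calls without A0304, 1 without A0301, 3 without A0303 or A0305, 5 without A0306 and 8 without A0302. Chil3, a chitinase-like protein of alternatively activated and alveolar macrophages, was at 168, 120 and 106 CPM against 933, 1263 and 581 (log2 change 2.82, SE 0.295, edgeR adjusted p = 0.0118). The top 5 cells held 63.13% of its reads in the first block and 64.52% in the second. Counted as cells with a read, scaled to their total in a tag, Chil3 had a log2 change of -0.12, in a test added after seeing the data. The plain share of C1q cells with a Chil3 read was 73.45% in the first block and 79.85% in the second. With cells thinned to equal depth it was 15.82% and 31.87%, beside 14.5% and 14% of B cells. A Chil3 read was found in 36.13% and 41% of B cells. Gate markers of the Mmp12 Gpnmb class summed to 3510 to 4661 CPM and 7880 to 9760 in the C1q class, and its own markers to 8787 to 9433 and 6038 to 7463. Those of alveolar macrophages summed there to 97.46 to 190.2 and 185 to 409.3, and those of type 2 cells to 44.59 to 164.3 and 132.2 to 327.6, with overlap. Alveolar macrophages held 66.7% of all Chil3 reads of the first block and 54.24% of all F7 reads. The part of these other markers in the calls was not tested. Arg1 and Spp1 are gate markers of the Mmp12 Gpnmb class, so a cell that gains reads of them can leave the C1q class.

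Glycolysis genes in C1q macrophages gave 14 of 16 positive changes, a median of 0.573 beside -0.00539 over all genes, and 0 calls. Of the 16, 11 had second-block tags all above the first, beside 7.4% of all genes (5.58% were all below). Gapdh, a central glycolytic enzyme, was at 873, 806 and 982 CPM against 1318, 1126 and 1079 (log2 change 0.41, edgeR adjusted p = 0.668). Pgk1, the next enzyme of the pathway, was at 158, 129 and 208 against 282, 249 and 211, close at its edges.

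In Mmp12 Gpnmb macrophages, which hold genes of lipid-laden macrophages, 10759 genes were tested, with 1 called higher (0.00929%) and 0 lower (0%). Unadjusted p under 0.05 gave 566, and DESeq2 called 49. The called gene was Fn1, at 260, 456 and 465 CPM against 1319, 1469 and 1450 (log2 change 1.84, SE 0.209, edgeR adjusted p = 0.0444). Arg1 was at 25.0, 22.2 and 103 CPM against 403, 1030 and 714 (log2 change 3.84, SE 0.593, edgeR adjusted p = 0.1347). It did not overlap and did not pass, and the gate itself reads Arg1. Ccl24, a chemokine that draws eosinophils and a marker kept out of the gate, was at 34.2, 21.4 and 24.4 against 182, 77.4 and 243 (log2 change 2.65, edgeR adjusted p = 0.136). Gpnmb was at 2658, 3252 and 2818 CPM against 1640, 1399 and 1633 (log2 change -0.90, edgeR adjusted p = 0.0556), just outside the threshold. The Fn1 call held with A0301 left out and was lost with any of the other 5 tags left out (edgeR adjusted p = 0.07482 to 0.2526, log2 change 1.81 to 1.97). Fn1 in the C1q class had a log2 change of 1.62 (edgeR adjusted p = 0.1475), so of the macrophage classes Fn1 passed in the alveolar and Mmp12 Gpnmb classes. Those calls held in 5 and 6 of 15 alternative settings. The changes of a gene were not tested between these classes.

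Alveolar type 2 cells gave the most calls of any class fitted. Of 12252 genes tested, 5 were higher (0.0408%) and 12 lower (0.0979%), and the tags stood apart for 6.39% of genes upward and 6.95% downward. With 1 tag left out between 3 calls (without A0302) and 13 (without A0303) were made, with 4 without A0301, 6 without A0304, 8 without A0305 and 9 without A0306. Genes of host defence and antigen presentation were among those that fell. Ly6i was at 2358, 2175 and 2874 CPM against 442, 588 and 611 (log2 change -2.17, SE 0.158, edgeR adjusted p = 0.000958), and its share of cells with a read was 71.19% against 46.79%, beside 3.053% and 2% of B cells. Pigr was at 362, 447 and 415 against 104, 105 and 107 (log2 change -1.95, SE 0.172, edgeR adjusted p = 0.00198), with a read in 45.04% of cells against 20.71%. The second block was the deeper one, with median depths of 44169 and 51549.5 reads, and still had fewer cells with a read of either gene. C3 was at 702, 701 and 683 against 247, 268 and 308.9 (log2 change -1.34, SE 0.145, edgeR adjusted p = 0.00789). Lcn2 was at 12690, 12903 and 13024 CPM against 5570, 7066 and 6336 (log2 change -1.03, SE 0.0855, edgeR adjusted p = 0.00174). The first-block tags of C3 and Lcn2 lay close together and far from the second block.

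Of 9 class II presentation genes tested, 2 were called lower, beside 0.0979% of all genes. Second-block tags lay all below the first for 7, beside 6.95% of all genes, and the median was -0.944 beside 0.0177 over all genes. The 2 called were Cd74, the invariant chain (-0.80, edgeR adjusted p = 0.00731), and H2-Aa, a class II chain (-0.99, edgeR adjusted p = 0.01). The class I genes H2-K1 (-0.79) and B2m (-0.75) were also lower, as was Sftpa1, a surfactant protein that binds microbes (-0.57). The calls of H2-K1, B2m and Sftpa1 each held in 6 of 15 alternative settings, beside 12 for Cd74 and 9 for H2-Aa. The last of the 12 were Chil1, a chitinase-like protein (-0.61), and Lyz2 (-0.49), which was called higher in alveolar macrophages. The difference between these changes of Lyz2 in the 2 classes was 1.06, with a limma adjusted p = 0.673. Among 18 immediate early genes, which respond to stress and to tissue dissociation, Fosb was called lower (-1.14, edgeR adjusted p = 0.032). Its call held in 6 of 15 alternative settings. Of the 18, 15 had a negative change, 10 had second-block tags all below the first, beside 6.95% of all genes, and the median was -0.53.

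The 5 genes that rose in alveolar type 2 cells included the lipid genes Scd1 and Npc2. Scd1, the desaturase of surfactant lipid synthesis, was at 4736, 3810 and 4826 CPM against 7120, 8004 and 7740 (log2 change 0.77, SE 0.0994, edgeR adjusted p = 0.019). Npc2, a lysosomal cholesterol carrier, was at 7280, 8440 and 8279 against 12134, 13181 and 12589 (log2 change 0.66, SE 0.0733, edgeR adjusted p = 0.00826). Counted as cells with a read, scaled to their total in a tag, Scd1 was at -0.20 and Npc2 at -0.17. Most cells had a read in both blocks, 93.7% and 90% for Scd1 and 98.55% and 96.43% for Npc2. That count thus had little room to rise and cannot decide the direction of the level. The median cell had more reads of both genes in the second block. The Scd1 call held in 6 of 15 alternative settings and that of Npc2 in 10. The other calls rested on few cells. Scgb1a1, the secretoglobin of club cells, was at 325, 243 and 97.8 CPM against 6238, 2070 and 7350 (log2 change 4.55, SE 0.536, edgeR adjusted p = 0.0103), and 5 cells held 94.37% of its second-block reads. Its median cell had 3 reads in both blocks, and 60.56% and 62% of B cells had a read, so reads of this gene were also found in cells that should lack it. The lysosomal genes Ctsd (1.79, edgeR adjusted p = 0.0466) and Psap (1.69, edgeR adjusted p = 0.042) had 67.66% and 56.29% of their second-block reads in 5 cells. Gate markers of the Mmp12 Gpnmb macrophage class summed to 117 to 406 CPM in first-block type 2 cells and to 468 to 2531 in second-block ones, while the type 2 markers were at 20310 to 21800 and 20530 to 22830. The part of these other markers in the 5 rises was not tested.

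In general capillary endothelium, the class of the alveolar wall from which capillaries renew, 12457 genes were tested and 0 were called (0%), with 786 at an unadjusted p under 0.05 and 95 called by DESeq2. The test of cells with a read, scaled to their total in a tag and added after seeing the data, called 91 genes. Of these, 37 were higher and 54 lower. Cell cycle genes lay higher in the second block without passing the test. All 20 had a positive change, the median was 1.98 beside -0.00349 over all genes, and 15 had second-block tags all above the first, beside 6.92% of all genes (5.92% were all below). Birc5, survivin, which acts at the dividing spindle, was at 13.1, 15.0 and 7.13 CPM against 69.8, 93.6 and 71.4 (log2 change 2.73, SE 0.394, edgeR adjusted p = 0.196). Cdk1, the kinase that drives mitosis, was at 2.65, 7.88 and 13.8 against 66.4, 55.2 and 52.9 (log2 change 2.85, SE 0.574, edgeR adjusted p = 0.288). Hmgb2, a chromatin protein of dividing cells, was at 282, 189 and 230 against 493, 765 and 505 (log2 change 1.33, edgeR adjusted p = 0.196). For Ube2c, which feeds the anaphase-promoting complex, CPM values were 36.0, 12.3 and 24.1 against 112, 195 and 89.9 (log2 change 2.45, edgeR adjusted p = 0.25). No tag of the first block reached the second block in these 4 genes.

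**Figure D5:**
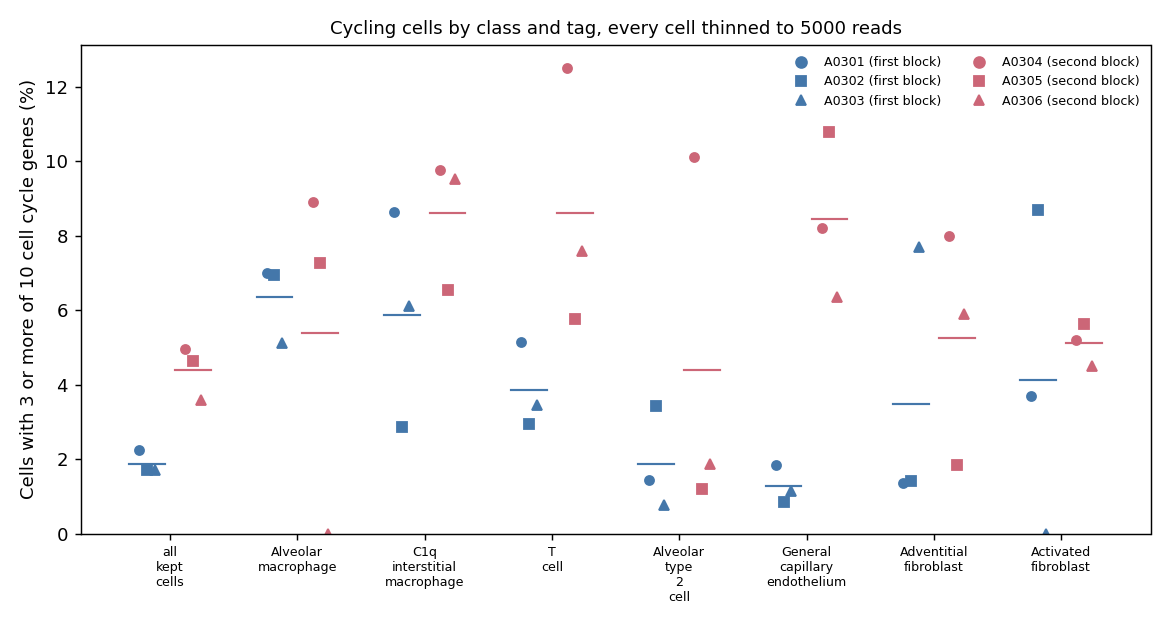
Percent of cells with reads of 3 or more of 10 cell cycle genes, every cell thinned to 5000 reads, over all kept cells and by class. Classes with 20 or more such cells before thinning are drawn. There is 1 point per tag and a line at the mean, first block blue and second block red. General capillary endothelium lies at 0.8403% to 1.832% in the first block and 6.356% to 10.77% in the second.

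Cycling cells were also counted, as cells with a read of 3 or more of 10 cell cycle genes, a measure added after seeing the data. In general capillary endothelium they were 2.198%, 2.101% and 2.857% against 11.64%, 12.46% and 8.051%, or 16 cells against 83. At 5000 reads a cell they were 1.832%, 0.8403% and 1.143% against 8.19%, 10.77% and 6.356%, so the blocks stood apart at equal depth too. Alveolar capillary endothelium, the thin gas-exchange type, had 2 such cells in the first block and 4 in the second. Over all kept cells the shares were 3.302%, 3.085% and 2.523% against 6.973%, 6.963% and 5.055%. T cells were at 4.34% ± 0.856 against 10.8% ± 4.23 (SD, n = 3 tags, exact permutation p = 0.1), or 11 cells against 20. At equal depth T cells were at 3.85% and 8.615%, with no overlap. C1q interstitial macrophages were at 7.49% ± 4.07 against 15.1% ± 1.39 (SD, n = 3 tags, exact permutation p = 0.1), and overlapped at equal depth, at 5.87% and 8.61%. Alveolar macrophages overlapped, at 9.54% and 10.8%, and at equal depth the order turned, at 6.35% and 5.39%, again with overlap. For general capillary endothelium and for all cells the exact permutation p was 0.1. In all, 16 sets of cells were looked at in this way, and no exact p of 3 against 3 tags can pass an adjustment. In whole-suspension sums 19 of 20 cell cycle genes were positive, and Top2a, the topoisomerase of dividing cells, was called, at 39.8, 27.7 and 28.6 CPM against 70.3, 62.6 and 57.9 (log2 change 0.99, SE 0.155, edgeR adjusted p = 0.0493). General capillary endothelium held 10.66% of Top2a reads in the first block and 18.05% in the second.

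Promoter sequences are shown for 3 cell cycle genes whose levels lay apart between the blocks in capillary endothelium and, beside them, for the collagen gene Col1a2, whose summed level rose. The 3 were picked by hand and do not stand for the list. Birc5, which also lay apart, is not shown. Many cell cycle promoters hold a CCAAT box, bound by NF-Y, and a cell cycle homology region, TTTGAA, bound by the DREAM and MuvB complexes. The sequences are the 250 bases before the annotated start, 5′ to 3′ on the gene's strand, from RefSeq (GRCm38.p6), and capitals mark CCAAT and TTTGAA on either strand (ATTGG and TTCAAA on the other). They are chr2:164769679-164769928 on the plus strand, chr8:57511593-57511842 on the plus strand, chr10:69352913-69353162 on the minus strand and chr6:4505368-4505617 on the plus strand.
Ube2c: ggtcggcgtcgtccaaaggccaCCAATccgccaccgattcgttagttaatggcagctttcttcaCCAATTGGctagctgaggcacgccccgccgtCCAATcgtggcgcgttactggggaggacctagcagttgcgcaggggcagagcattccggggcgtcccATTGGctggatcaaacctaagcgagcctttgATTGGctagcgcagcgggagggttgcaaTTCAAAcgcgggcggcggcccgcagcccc
Hmgb2: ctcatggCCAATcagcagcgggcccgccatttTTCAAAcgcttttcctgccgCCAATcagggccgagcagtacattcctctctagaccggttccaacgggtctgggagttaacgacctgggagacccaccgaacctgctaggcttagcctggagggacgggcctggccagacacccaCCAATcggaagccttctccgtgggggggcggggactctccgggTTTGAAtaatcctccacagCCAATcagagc
Cdk1: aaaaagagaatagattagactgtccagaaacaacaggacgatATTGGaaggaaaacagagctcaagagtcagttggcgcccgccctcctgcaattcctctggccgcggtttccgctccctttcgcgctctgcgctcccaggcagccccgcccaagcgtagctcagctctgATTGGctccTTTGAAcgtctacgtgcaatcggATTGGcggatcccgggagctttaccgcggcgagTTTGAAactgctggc
Col1a2: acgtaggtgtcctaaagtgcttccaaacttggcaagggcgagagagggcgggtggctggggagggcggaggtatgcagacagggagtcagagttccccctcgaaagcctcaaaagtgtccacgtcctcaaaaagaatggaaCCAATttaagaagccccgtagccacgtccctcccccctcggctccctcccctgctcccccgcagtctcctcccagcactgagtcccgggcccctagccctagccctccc
The 3 cell cycle promoters each hold both motifs, with the TTTGAA nearest the start 29 bases before it in Ube2c, 30 in Hmgb2 and 15 in Cdk1. Col1a2 holds 1 CCAAT and no TTTGAA in this window. Of the 24 matrix genes 12 have a promoter in the table, too few for a check of that list, which is void, so 1 collagen promoter does not stand for the list. Over all 27025 genes with a promoter in the table, 34.5% held CCAAT, 16.3% held TTTGAA and 5.73% held both. Of the 17 cell cycle genes on the list with a promoter there, out of 20, 15 held CCAAT (88.2%) and 6 held TTTGAA (35.3%), and all 6 held both. A match is a match of letters and was not tested as a binding site.

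Other lists in general capillary endothelium lay lower in the second block, again with 0 calls. All 18 immediate early genes had a negative change with a median of -0.406, and 10 had second-block tags all below the first, beside 5.92% of all genes. Egr1, an early growth response factor, was at 1492, 1638 and 1463 CPM against 744, 884 and 1032 (log2 change -0.79, SE 0.118, edgeR adjusted p = 0.196). Of 25 type I interferon response genes 20 were negative, with a median of -0.362 and 8 all below, beside the same 5.92%. Irf7 was at 158, 168 and 182 CPM against 105, 94.4 and 91.1 (log2 change -0.80, edgeR adjusted p = 0.384). The remaining classes gave no calls by edgeR. Classical monocytes had 10928 genes tested and 0 called (0%), with 481 at an unadjusted p under 0.05 and 23 by DESeq2. Alveolar fibroblasts had 7993 tested and 0 called (0%), with 266 and 25. Neutrophils had 4857 tested and 0 called (0%), with 112 and 10.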

How the data were processed

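Single-cell RNA sequencing counts of lung cells, 1 gene per line and 1 cell per column, were deposited by the authors as whole numbers without normalization. The submitters' processing notes name the build GRCm38 and the tools R 3.6.3, Bowtie2 2.4.2 and cutadapt 2.10, without their roles. The counting rule, the annotation and the use of molecular identifiers are not given in the sources used here. The median nonzero entry was 9 and 22.29% of such entries were 1, so counts were taken as reads, and shares cover counting error only. The WT table held 23966 genes and 680 columns named doublet, which were left out, and Scrublet (scanpy 1.11.5) called 2.23% of first-block and 1.89% of second-block cells, kept except in 1 alternative. No row named no gene.

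Reads were summed per tag over kept cells (200 or more detected genes, 25% or less mitochondrial reads) and per class where each tag had 20 or more cells. They were tested with edgeR 4.0.16 (quasi-likelihood, filterByExpr, TMM) in R 4.3.3, with Benjamini-Hochberg adjustment over all genes of a fit at 0.05, on the 6 tags only. CPM was computed here, and each SE follows from the log2 change and the F value. Class shares were tested by the same model on cells, with kept cells as offset, adjusted over 25 classes, for classes with 20 or more cells. Two-sided exact permutation tests ran over tags. No day or animal term could be fitted. The steps were tested on simulated data. Genes named from the whole suspension were up to 10 per direction of the largest change among called genes with no overlap and a CPM of 20 or more, from a class up to 5 with 50 or more, and from a gene list up to 4 called members. Other members are given as values. Members and lists were chosen with earlier results of these data known. Also used were pandas 2.3.3, scipy 1.17.1, matplotlib 3.10.9, numpy 2.4.6, DESeq2 1.42.0, limma 3.58.1 and Python 3.11.15. All 46 named genes matched RefSeq by symbol. Alternatives changed the cell filter, depth, gate, gene filter, tool and tags.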

Additional observations from a re-analysis of the deposited data

How the results depend on the processing

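No paired analysis was possible because the blocks share no tag number and all tags come from 1 library. DESeq2 called 835 genes in the whole suspension, 136 in alveolar type 2 cells, 95 in general capillary endothelium, 94 in C1q macrophages, 82 in activated fibroblasts, 78 in alveolar macrophages, 49 in Mmp12 Gpnmb macrophages, 25 in alveolar fibroblasts, 23 in classical monocytes and 10 in neutrophils. Without a low-count filter edgeR called 53 in alveolar type 2 cells, 28 in alveolar macrophages, 25 in alveolar fibroblasts, 23 each in C1q and Mmp12 Gpnmb macrophages, 13 in activated fibroblasts, 6 in general capillary endothelium, 3 in classical monocytes and 1 in neutrophils. Tests of cells with a read, added after seeing the data, gave 1014 in the whole suspension, 91 in general capillary endothelium, 3 in activated fibroblasts, 2 in C1q and 1 in alveolar macrophages. With all 9 tags in the fit the calls were 6 in alveolar type 2 cells, 3 in C1q macrophages and 1 in alveolar fibroblasts. The stricter cell filter left 7 in alveolar type 2 cells. Mmp12 Gpnmb macrophages had 0 with Scrublet doublets left out, with equal cells per tag and with the larger share of gate markers required. Without activated fibroblasts the whole suspension had 5.

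Tests of cells with a read were scaled to their total in a tag, so a negative value is a fall relative to that total. The plain share of cells can still rise or stay level. It was 91.04% and 97.09% for Spp1 and 100% in both blocks for Lyz2 in alveolar macrophages. For Scd1 in alveolar type 2 cells it fell from 93.7% to 90%. Such tests gave the opposite sign for 14 changes of named genes, the only setting to do so. These were Lyz1 (-0.13), Lyz2 (-0.13) and Spp1 (-0.03) in alveolar macrophages, and Chil3 (-0.12) and Lyz2 (-0.24) in C1q macrophages. In alveolar type 2 cells they were Scd1 (-0.20), Npc2 (-0.17), Scgb1a1 (-0.08), Ctsd (-0.05) and Psap (-0.01), and in the whole suspension Spp1 (-0.06), Saa3 (-0.05), Col1a2 (-0.03) and Col4a1 (-0.00). Of the other values of named genes outside leave-one-out, 517 kept direction and call and 110 kept direction only.

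Share calls were lost for alveolar macrophages with 5 or more reads per marker (-0.56), for C1q macrophages at 5000 reads (0.58), for ciliated cells at 5000 reads (-0.83), with every tagged cell (-0.78) and with the stricter filter (-0.78), and for neutrophils with the larger share of gate markers (0.71). The cause was not tested. Leaving out 1 tag moved whole-suspension calls between 3 (without A0305) and 60 (without A0306), with 7 without A0304 and 15, 19 and 18 without A0301, A0302 and A0303. It moved the class share calls to between 4 and 9, calls in alveolar type 2 cells to between 3 and 13, in alveolar macrophages to 1 to 7, in C1q macrophages to 0 to 8, in Mmp12 Gpnmb macrophages, activated and alveolar fibroblasts to 0 to 1, and left 0 to 0 in classical monocytes, neutrophils and general capillary endothelium. Share changes ranged over 1.94 to 2.05 for activated fibroblasts, -1.29 to -0.74 for B cells, 0.83 to 1.05 for neutrophils, 0.55 to 0.84 for C1q macrophages, -0.86 to -0.50 for alveolar macrophages, -0.63 to -0.43 for alveolar type 2 cells and -1.19 to -0.80 for ciliated cells. Of named gene values with 1 tag left out, 124 kept the call and 218 kept direction only.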
